A study of Mus musculus with 9 samples.

Results

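The genes described here encode 10 enzymes of asparagine synthesis, serine synthesis and folate-bound one-carbon metabolism, namely Asns, Phgdh, Psat1, Psph, Shmt1, Shmt2, Mthfd1, Mthfd2, Mthfd1l and Aldh1l2. They were chosen by name and found on the arrays through the gene name or RefSeq identifier of each probe, and they make up 10 of the 20898 genes tested. The arrays held 16 probes for them. All 10 genes passed the filter on dim probes, with the sample channel well above local background on 9 of 9 arrays and no saturated spot.

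The study asked how the mRNA content of dorsal root ganglia (DRG), the clusters of sensory neuron cell bodies beside the spinal cord, changes once the sciatic nerve that carries their axons has been cut. RNA of lumbar DRG from adult mice was measured in 4 uninjured samples (treatment label control) and 5 injured samples (treatment label lesion). The study's methods give L3/L4 ganglia for these arrays, and its results text gives L4. The labels and methods give 3 days after transection, while the study's results text gives an earlier time. All 9 samples carried the labels cre.neg and jun.wt, and strain, sex and animal were not given, so that neither pooling of animals nor, for these arrays, whether uninjured ganglia came from injured mice was stated. For its nerve crush assays by other methods the study used ganglia of the opposite side as controls. Where samples are not known to be separate animals, p-values measure only the spread between these samples, which may be technical. DRG RNA carried Cy5 throughout and was hybridised together with Cy3-labelled universal mouse reference RNA, and dyes were not swapped. Values are therefore log2 ratios of DRG over reference, and a log2 fold change is the mean ratio of injured arrays minus that of uninjured arrays.

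Asparagine synthetase, encoded by Asns, transfers the amide group of glutamine to aspartate. Phgdh, Psat1 and Psph catalyse the consecutive steps from a glycolytic intermediate to serine, and the serine hydroxymethyltransferases Shmt1 (cytosol) and Shmt2 (mitochondria) pass a carbon of serine to tetrahydrofolate. In mitochondria Mthfd2 oxidises that unit to formyltetrahydrofolate, from which Mthfd1l releases formate and Aldh1l2 forms carbon dioxide, and in the cytosol the multifunctional enzyme Mthfd1 returns formate to the folate pool for purine and thymidylate synthesis. Several of these genes are textbook targets of the transcription factor ATF4, which is translated more efficiently during the integrated stress response and binds C/EBP-ATF composite elements.

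Because ATF4 targets are at the centre of the study, the promoter windows of the genes in RefSeq (GRCm38.p6, 250 bases before to 50 after the annotated start) were searched on both strands for the core of the composite element, TGATGNAA, and, as a second motif, for the AP-1 site TGANTCA. A match to either motif cannot lie wholly inside a match to the other. The windows of 9 of the 10 genes were in the table, and Aldh1l2 was not. The composite core was found in 1 of these 9 genes, Asns, at −23 to −16 from the start, against 3.97% of all 32851 windows and 4.51% of 27025 genes. The AP-1 site was found in none of the 9, against 7.81% of all windows and 8.97% of the 27025 genes. A match in a window is a description of its letters and not a measured binding site, and the absence of these letters from a window says nothing about the factor. The last 60 bases before the start are shown for the 4 genes that passed the test described below, 5′ to 3′ on the strand of the gene and with the composite core in capitals. All lie on the minus strand, at chr6:7693210-7693269 for Asns, chr6:83317605-83317664 for Mthfd2, chr19:15924623-15924682 and chr19:15925060-15925119 for the 2 starts of Psat1, and chr10:127522445-127522504 for Shmt2.
Asns: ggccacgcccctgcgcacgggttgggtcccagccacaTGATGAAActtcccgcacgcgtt
Mthfd2: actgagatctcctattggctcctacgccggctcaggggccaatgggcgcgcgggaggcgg
Psat1, nearer start: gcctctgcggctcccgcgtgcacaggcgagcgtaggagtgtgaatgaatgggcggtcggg
Psat1, farther start: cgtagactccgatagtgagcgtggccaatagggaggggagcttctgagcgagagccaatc
Shmt2: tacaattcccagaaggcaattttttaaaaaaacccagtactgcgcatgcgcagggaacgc

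Of the 10 transcripts, Mthfd2, Psat1, Asns and Shmt2 were higher in injured DRG, none was lower, and 6 did not pass the test (limma, Benjamini-Hochberg adjusted p under 0.05 over all genes). The rises were between 0.35 and 0.53 on the log2 scale, or 1.28-fold to 1.45-fold. Over all 20898 genes the same test called 25.4%, with 11.4% higher and 14.0% lower, and the median log2 fold change was 0.0011. The median over the 10 enzymes was 0.14. In the same 4 transcripts the injured arrays did not overlap with the uninjured ones, as was the case for 23.9% of all genes in either direction. The 4 rises were split between compartments, with 2 of 6 cytosolic genes (median log2 fold change 0.09) and 2 of 4 mitochondrial genes (median 0.26).

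**Figure D1:**
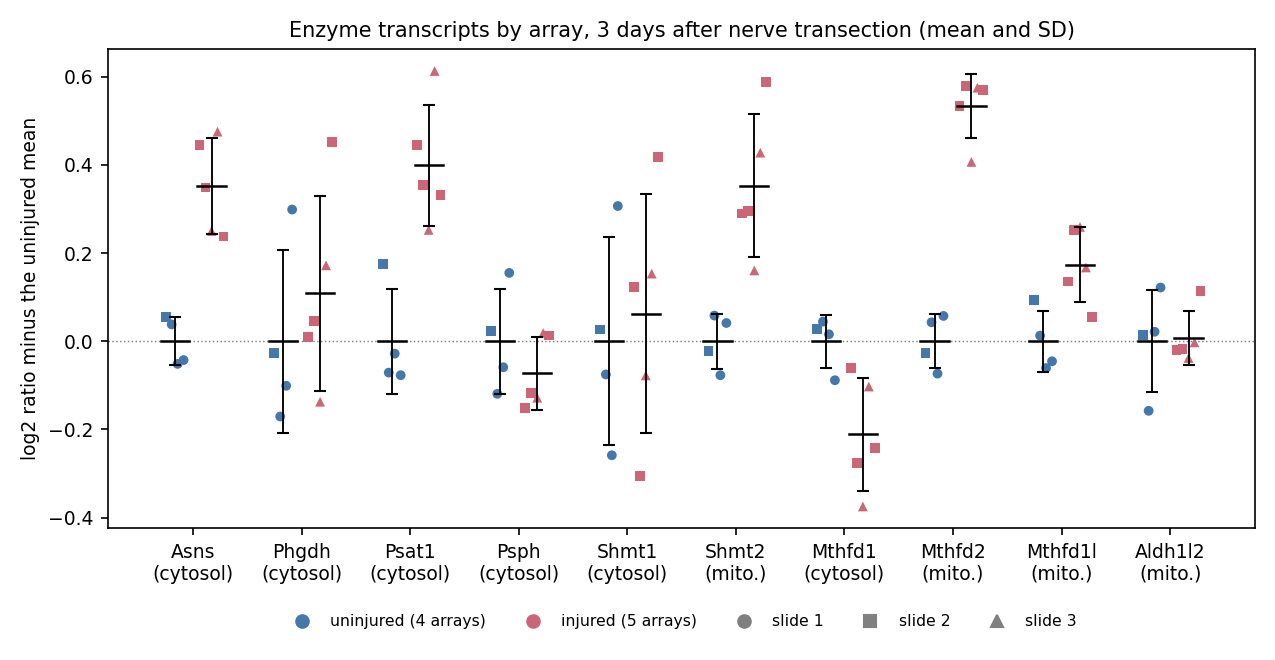
Log2 ratio of each enzyme on each array minus the mean of the 4 uninjured arrays, for 4 uninjured (blue) and 5 injured (red) arrays; marker shapes give the slide, horizontal bars the group mean and vertical bars the SD. Injured arrays lie above every uninjured array for Asns, Psat1, Shmt2 and Mthfd2, and the groups overlap for the other 6 genes.

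The array slides bear on all of these comparisons. Slide 1 held 3 uninjured arrays, slide 2 held 1 uninjured and 3 injured arrays, and slide 3 held 2 injured arrays. Slide and injury therefore overlap in large part, and only slide 2 allows a comparison within a slide, with a lone uninjured array. The median Cy5 signal was 156 to 238 per array, 71.0% to 78.9% of spots were above background in Cy5, and 2 to 26 spots per array were left out for non-uniform signal, none of them in the enzymes. The number of arrays limits the precision. In bulk ganglia, fewer cells of a type and less RNA per cell cannot be told apart.

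The level of Asns, the asparagine-forming enzyme, was above the reference in all samples. Its log2 ratios were 0.38, 0.36, 0.27 and 0.28 on uninjured arrays 1 to 4 and 0.77, 0.67, 0.57, 0.80 and 0.56 on injured arrays 1 to 5. The lowest injured array thus lay above the highest uninjured one. Asns rose by 0.35 (SE 0.0674, 95% interval 0.20 to 0.50, limma adjusted p = 0.00347), and a two-sided exact permutation test, which goes through all ways to split the 9 arrays, gave p = 0.00794, its smallest possible value. With slide as a block, which equals the comparison within slide 2, the difference was 0.29 and did not pass (limma adjusted p = 0.246). Nor did it pass with arrays centred on their median instead of loess (0.20, adjusted p = 0.416), in the authors' processed values (0.37, adjusted p = 0.0953) or in the Cy5 channel alone (0.17, adjusted p = 0.1). Its single probe, at chr6:7628080-7628139 on mm7, the build of the array's annotation, had a background-subtracted Cy5 signal of 49860 to 83650.

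Among the enzymes of serine synthesis, Psat1, the phosphoserine aminotransferase of the middle step, rose, and Phgdh and Psph did not pass the test. Psat1 log2 ratios were −2.09, −2.34, −2.29 and −2.34 on uninjured arrays and −1.82, −1.91, −2.01, −1.65 and −1.93 on injured arrays. All 5 injured arrays were above all uninjured ones, the nearest being injured array 3 and uninjured array 1. The difference was 0.40 (SE 0.085, 95% interval 0.21 to 0.59, limma adjusted p = 0.00618, exact permutation p = 0.00794). Within slide 2, which holds that highest uninjured array, it was 0.20 (limma adjusted p = 0.466 with slide as a block), and with median centring 0.31 (adjusted p = 0.187).

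Phgdh encodes the phosphoglycerate dehydrogenase that commits carbon to the serine pathway. Its log2 ratios ran from −2.45 to −1.98 on uninjured arrays and from −2.41 to −1.82 on injured arrays, and 1 of 5 injured arrays was above all uninjured ones. The log2 fold change was 0.11 (95% interval −0.17 to 0.39, limma adjusted p = 0.584), and its 2 other probes gave 0.14 and 0.15. Psph, the phosphatase that releases serine, had log2 ratios of −0.81 to −0.54 on uninjured and −0.85 to −0.68 on injured arrays. Its difference was −0.07 (95% interval −0.23 to 0.09, adjusted p = 0.505) and −0.09 on its second probe. The groups overlapped for both genes, and the intervals leave room for changes of either sign.

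**Figure D2:**
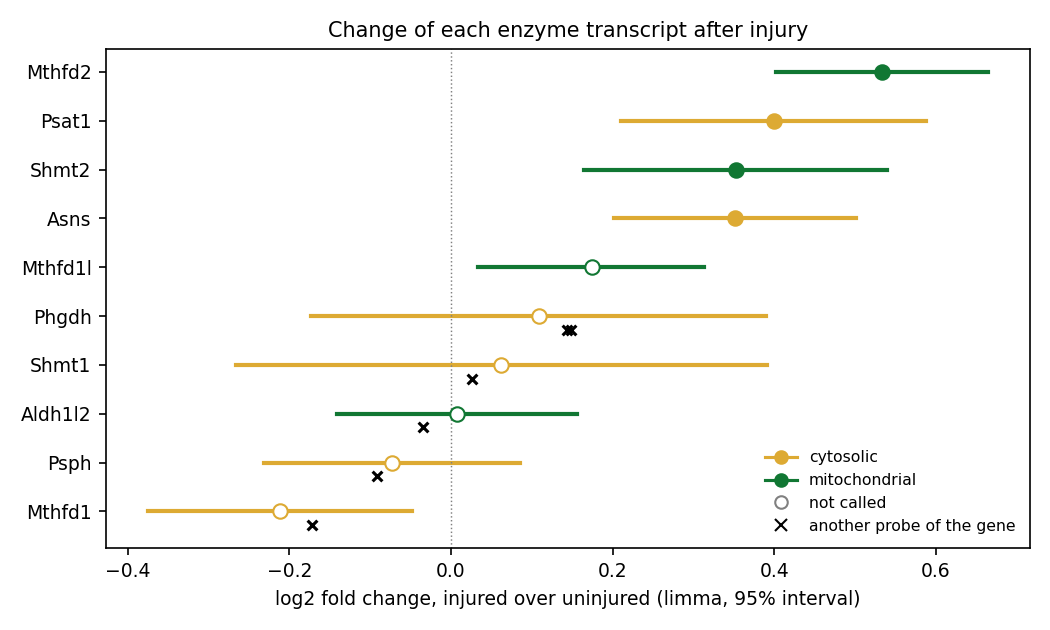
Log2 fold change of injured over uninjured arrays for each enzyme (circles, filled where called) with the 95% limma interval (lines), coloured by compartment; crosses give other probes of the same gene. The intervals of Mthfd2, Psat1, Shmt2, Asns and Mthfd1l lie above 0 and that of Mthfd1 below 0, and only the first 4 of these passed adjustment over all genes.

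Of the serine hydroxymethyltransferases, the mitochondrial Shmt2 rose and the cytosolic Shmt1 did not pass the test. Shmt2 log2 ratios were −3.30, −3.22, −3.36 and −3.24 on uninjured arrays and −2.99, −2.98, −3.12, −2.85 and −2.69 on injured arrays. The groups did not overlap, and the injured arrays were more spread (SD 0.162 against 0.0621). The difference was 0.35 (SE 0.0846, 95% interval 0.17 to 0.54, limma adjusted p = 0.0116, exact permutation p = 0.0159). It was 0.41 within slide 2 (adjusted p = 0.179 with slide as a block) and 0.27 with median centring (adjusted p = 0.0695).

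Shmt1 was dim, with a background-subtracted Cy5 signal of 78.4 to 140 on its brighter probe. Its log2 ratios ran from −1.69 to −1.13 on uninjured and from −1.74 to −1.02 on injured arrays, with injured arrays at both ends of the range. The log2 fold change was 0.06 (95% interval −0.27 to 0.39, limma adjusted p = 0.804) and 0.03 on its second probe.

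The largest rise among the 10 enzymes was that of Mthfd2, the mitochondrial methylenetetrahydrofolate dehydrogenase and cyclohydrolase, which is abundant in embryonic and dividing cells. Its log2 ratios were −0.82, −0.75, −0.87 and −0.74 on uninjured arrays and −0.26, −0.22, −0.39, −0.22 and −0.23 on injured arrays. The gap between the groups, from −0.74 to −0.39, was wider than the range within either of them. Mthfd2 rose by 0.53 (SE 0.0592, 95% interval 0.40 to 0.66, limma adjusted p = 0.000123, exact permutation p = 0.00794), which put it at rank 974 of 20898 genes ordered from the largest rise. With slide as a block the difference was 0.59 and passed (limma adjusted p = 0.0223), as it did for none of the other 3 called enzymes. With the arrays of slide 2 alone the adjusted p was 0.154.

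Mthfd1l, the mitochondrial formyltetrahydrofolate synthetase that releases formate, had log2 ratios of −2.11, −2.19, −2.26 and −2.25 on uninjured arrays and −2.07, −1.95, −1.94, −2.03 and −2.15 on injured arrays. In 4 of 5 injured arrays it was above all uninjured ones, injured array 5 being the exception. The log2 fold change of 0.17 (95% interval 0.03 to 0.31) did not pass adjustment (limma adjusted p = 0.0687), and it passed without injured array 5 (0.20, adjusted p = 0.0313). It was 0.05 with slide as a block (adjusted p = 0.831) and 0.08 with median centring (adjusted p = 0.798). The array annotation places the Mthfd1l probe on the minus strand of mm7 (chr10:6191199-6191258) although RefSeq has the gene on the plus strand of GRCm38.p6, so its location was not settled and the gene rests on its accession.

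Aldh1l2, which oxidises formyltetrahydrofolate in mitochondria, showed no detectable difference at this number of arrays. Its log2 ratios were −3.76 to −3.48 on uninjured and −3.64 to −3.49 on injured arrays. The difference was 0.01 (95% interval −0.14 to 0.16, limma adjusted p = 0.955), and −0.03 on its second probe. Both probes were dim, with Cy5 signals of 113 to 236 and 40.3 to 101.

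In the cytosol, Mthfd1 had log2 ratios of −0.82, −0.80, −0.83 and −0.94 on uninjured arrays and −0.91, −1.12, −1.22, −0.95 and −1.09 on injured arrays. In 4 of 5 injured arrays it was below all uninjured ones, and injured array 1 lay inside their range. The log2 fold change of −0.21 (95% interval −0.37 to −0.05) did not pass adjustment (limma adjusted p = 0.0596). It passed without injured array 1 (−0.25, adjusted p = 0.0322) and in the authors' processed values (−0.24, adjusted p = 0.0425), but not with slide as a block (−0.22, adjusted p = 0.419), and its second probe gave −0.17.

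To set the mitochondrial enzymes beside their cytosolic counterparts, the log2 ratio of the cytosolic gene was subtracted from that of the mitochondrial gene on each array, and the difference was compared between groups. This measures unequal change and not which compartment has more transcript. The 4 pairs were compared by two-sided exact permutation tests, with p-values adjusted over the 4 pairs. Relative to the uninjured mean, Mthfd2 minus Mthfd1 lay between −0.09 and 0.15 on uninjured arrays and was 0.59, 0.86, 0.78, 0.68 and 0.81 on injured arrays 1 to 5. The groups were well apart, with a difference in change of 0.74 (95% interval 0.58 to 0.91, exact p = 0.00794, the smallest possible, adjusted p = 0.0318). Mthfd1l minus Mthfd1 lay between −0.08 and 0.07 on uninjured and between 0.20 and 0.63 on injured arrays, a difference of 0.39 (95% interval 0.15 to 0.62, exact p = 0.0159, adjusted p = 0.0318). These pairs share Mthfd1 and are not independent. Leaving out single arrays gave differences of 0.71 to 0.79 and 0.32 to 0.43, and for most arrays the exact test then gave an adjusted p of 0.0571 or 0.0714. With an array left out there are fewer splits, and the smallest p the test can give is larger than 0.00794. These adjusted p-values therefore cannot tell a weaker difference from a smaller number of arrays.

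For the hydroxymethyltransferases the separation was weaker. Shmt2 minus Shmt1 ran from −0.27 to 0.18 on uninjured arrays and from 0.17 to 0.60 on injured arrays, so the groups overlapped slightly, and injured array 2 alone stood at 0.60. The difference was 0.29 (95% interval −0.01 to 0.59, exact p = 0.0318, adjusted p = 0.0423), and without injured array 2 it was 0.21 (adjusted p = 0.0857). With other arrays left out in turn the exact test passed only without uninjured array 3, the remaining adjusted p-values lying between 0.0571 and 0.125. Aldh1l2 was set against Aldh1l1, the cytosolic formyltetrahydrofolate dehydrogenase, which was 0.42 higher in injured DRG without passing the test across genes (limma adjusted p = 0.128). This pair went the other way, with a difference in change of −0.41 (95% interval −0.82 to 0.01, exact p = 0.0476, adjusted p = 0.0476). It passed without injured array 3 and with no other array left out, where the exact test gave adjusted p-values of 0.0571 to 0.143. For both pairs, leaving out an array also raises the smallest p that the test can give. Within slide 2, where the exact test cannot go below 0.25 before adjustment, the 4 differences were 0.81, 0.28, 0.36 and −0.70 in the order given here.

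**Figure D3:**
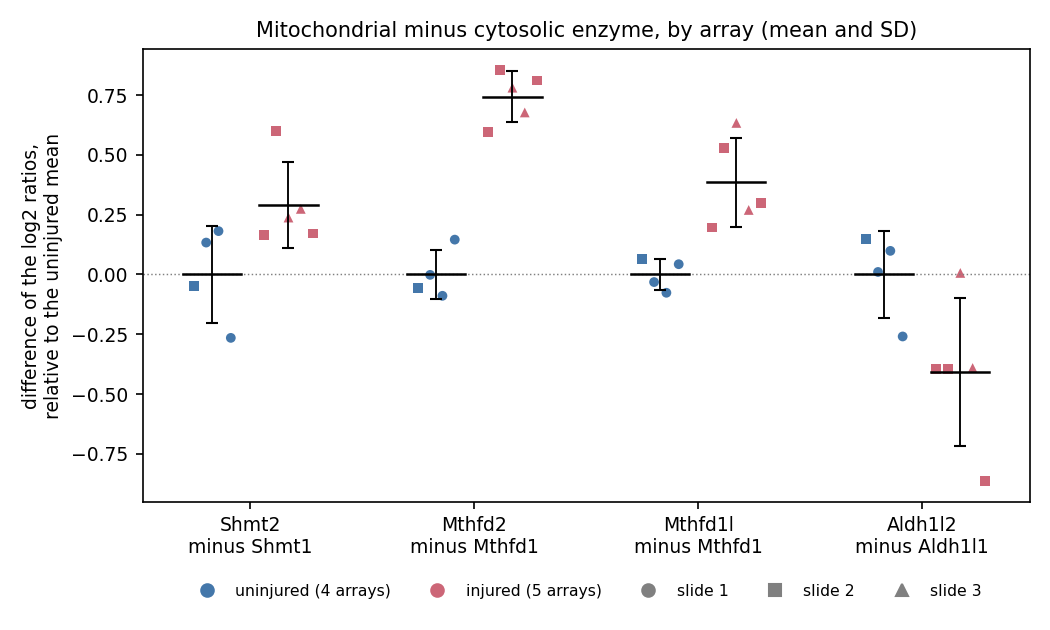
Mitochondrial minus cytosolic log2 ratio on each array, relative to the mean of the 4 uninjured arrays, for the 4 pairs; colours give the group, marker shapes the slide, horizontal bars the group mean and vertical bars the SD. Injured arrays of both Mthfd1 pairs lie above 0, between 0.20 and 0.86, while those of the Aldh1l pair lie between −0.86 and 0.01.

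The transcript of the factor itself was measured on the same arrays. Atf4 log2 ratios were −1.67, −1.72, −1.74 and −1.85 on uninjured arrays and −1.04, −1.12, −1.24, −1.08 and −1.32 on injured arrays. The groups did not overlap, and Atf4 rose by 0.58 (SE 0.0713, limma adjusted p = 0.000219). With slide as a block it was 0.51 (adjusted p = 0.0692), and with median centring 0.51 (adjusted p = 0.0587).

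The surrounding pathways were described with 60 further genes in 6 lists, of which 57 were tested. In these lists 12 genes rose and 9 fell, beside the 11.4% and 14.0% of all genes given above, and the median log2 fold change was −0.01. With slide as a block 4 of the 57 were called higher and none lower, and with median centring 6 and 4. The 4 called with slide as a block were Glul, Aspg, Slc1a4 and Fpgs. Of the genes named below, Slc25a12, Srr, Tyms, Ahcy, Mat2b and Bhmt2 passed in neither of these settings.

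Around asparagine and aspartate, 2 of 9 genes rose and 1 fell. Glul, the glutamine synthetase of satellite glia, rose by 0.78 (SE 0.0883, limma adjusted p = 0.000133). Aspg, an asparaginase that breaks asparagine down, rose by 0.64 (SE 0.185, adjusted p = 0.0287) with overlapping groups, a call made under 17 of 24 other settings with values of 0.38 to 1.13 (1.13 with slide as a block). Slc25a12, a mitochondrial aspartate-glutamate carrier of excitable tissues, fell by 0.26 (adjusted p = 0.00532).

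In serine transport and use, 4 of 13 genes rose and 1 fell. Slc1a4, a neutral amino acid transporter that carries serine, rose by 0.77 (SE 0.0725, limma adjusted p = 3.94e-05), and Slc6a9, the glycine transporter GlyT1, rose by 0.50 (adjusted p = 0.00907). Srr, the racemase that forms D-serine, fell by 0.20 (adjusted p = 0.0199), a call made under 15 of 24 other settings. None of the 3 tested genes of the glycine cleavage system passed the test, their log2 fold changes lying between −0.26 and 0.03.

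The folate genes moved in both directions, with 3 of 14 higher and 4 lower. Fpgs, which adds the polyglutamate tail that keeps folate in the cell, rose by 0.62 (SE 0.0788, limma adjusted p = 0.000271), and Tyms, thymidylate synthase, rose by 0.37 (adjusted p = 0.0112). Slc46a1, the proton-coupled folate transporter, fell by 0.52 (adjusted p = 0.00147), and Mthfs, another enzyme of the folate cycle, fell by 0.38 (adjusted p = 0.0016).

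Of the methionine cycle and transsulfuration, 3 of 12 genes rose and 2 fell. Ahcy, the hydrolase of S-adenosylhomocysteine, rose by 0.64 (limma adjusted p = 0.000341) and Cth, the cystathionine lyase that yields cysteine, by 0.48 (adjusted p = 5e-04). Mat2b, the regulatory subunit of methionine adenosyltransferase, fell by 0.40 (adjusted p = 0.00195), and Bhmt2, a homocysteine methyltransferase, fell by 0.26 (adjusted p = 0.0491), a call made under 5 of 23 other settings. In purine synthesis, which consumes formyltetrahydrofolate, Ppat, the amidotransferase of the first committed step, fell by 0.51 (adjusted p = 0.00133) and the other 5 genes did not pass the test.

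**Figure D4:**
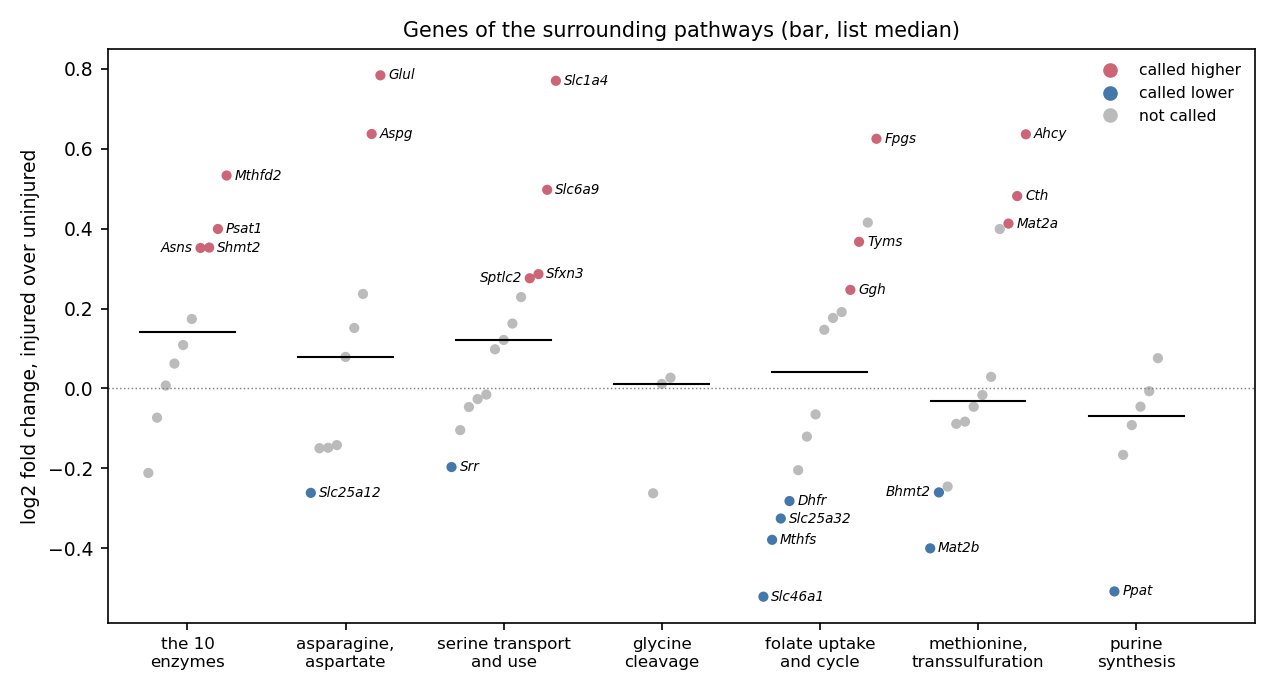
Log2 fold change of injured over uninjured DRG for the 10 enzymes and the 57 tested genes of 6 surrounding lists, one point per gene; red points were called higher, blue points lower, grey points did not pass the test, and black bars are list medians. Called genes of both signs appear in the folate and methionine lists, whereas the glycine cleavage list has none.

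Markers of the cell types in and around the ganglion were read on the same arrays, as the mean log2 ratio of each list relative to the uninjured arrays. All 10 tested DRG neuron markers were above background on every array. Of these, 2 fell, Scn11a by 0.45 and Isl1 by 0.49, beside 14.0% of all genes. The neuron list lay between −0.11 and 0.11 on uninjured arrays and between −0.29 and 0.03 on injured arrays. Of 10 satellite glia markers 3 rose, namely Gfap by 1.08, Glul by 0.78 and Slc1a3 by 0.22, and Aqp4 fell by 0.52. Over all genes 11.4% were called higher and 14.0% lower. Gfap was above background on 6 of 9 arrays, so that its change was not fully measured. The satellite glia list lay between −0.11 and 0.12 on uninjured and between 0.07 and 0.32 on injured arrays. Gfap and Glul weigh heavily on this mean, and the median log2 fold change of the 10 genes was 0.04. Of 11 macrophage markers 2 were called higher, Aif1 by 0.90 and Itgam by 0.50, beside 11.4% of all genes. The log2 fold changes of the 11 lay between 0.26 and 0.90, with a median of 0.69. The macrophage list lay between −0.44 and 0.38 on uninjured and between 0.06 and 1.11 on injured arrays.

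Since Mthfd2 and Tyms are known to be high in dividing cells, genes of cell division were read beside them. Of 11 tested, 2 rose, Birc5 by 0.36 and Pcna by 0.24, beside 11.4% of all genes. The list mean lay between −0.06 and 0.03 on uninjured arrays and was 0.04, 0.43, 0.03, 0.23 and 0.28 on injured arrays 1 to 5. Mthfd2, relative to its uninjured mean, was 0.53, 0.58, 0.41, 0.58 and 0.57 on the same injured arrays. Muscle genes, from tissue outside the ganglion, were raised on injured array 2 (list mean 1.74) and injured array 4 (2.94), against −0.07 to 0.09 on uninjured arrays, and red blood cell genes on injured arrays 2, 4 and 5 (1.57, 0.68 and 1.11, against −0.24 to 0.31 on uninjured arrays). None of the 7 muscle, 4 red blood cell and 8 myelinating Schwann cell genes passed the test (limma). Beside the 11.4% of all genes, 1 of 7 fibroblast and perineurium genes (Slc2a1, by 1.47) and 1 of 6 endothelial genes (Tek, by 0.47) rose. Without injured arrays 2 and 4 the rises were 0.50 for Mthfd2 (limma adjusted p = 0.00323), 0.34 for Psat1 (0.0357) and 0.31 for Asns (0.0327), while that of Shmt2, 0.35, no longer passed (0.0624). This setting was chosen after seeing the data, and it kept injured array 5, on which red blood cell genes were raised. The part of other cell types in the changes of the enzymes was not tested.

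In the Cy3 reference channel alone, where the same RNA was hybridised to every array, the differences of the 10 enzymes between the groups lay between −0.07 and 0.09, and none passed the test (lowest limma adjusted p = 0.589). Over all genes 33 were called in that channel, and 2009 had an unadjusted p under 0.05. In uninjured DRG the mean log2 ratio after normalization was negative for 9 of the 10 enzymes, the exception being Asns. Dye and sample cannot be told apart in these ratios.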

How the data were processed

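The deposited intensities are, for both channels, the mean of each spot and the median of its local background, read per the file headers by Feature Extraction 10.5.1.1. The log10 ratios in the same files are, per the file headers, Agilent's own dye-normalized ratios. A table of the authors holds log2 ratios (Cy5 over Cy3) after their background correction and within-array normalization. The submitters' processing notes name limma.

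Processing used R 4.3.3 with limma 3.58.1. Spots flagged non-uniform in feature or background were left out, a choice made because earlier results showed that they distorted the background fit of 1 array. Background was corrected by normexp (offset 50), followed by loess within each array (control spots at weight 0) and the mean of repeated spots. Probes were kept if 4 or more arrays had them well above background in Cy5, and the brightest probe stood for a gene. Of 41174 probes, 22951 were matched to symbols by accession, 6659 by symbol, 3109 by an older name, and 8455 kept their name in the file.

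Groups were compared with limma's moderated test over all genes, and single genes and pairs with exact permutation tests over arrays. The enzymes and lists were chosen with earlier results of these data known. Named from the lists were the called genes with the largest change, up to 2 per direction and list, with Aldh1l1 and Atf4. Called markers were named knowing their values. The alternatives tried were an offset of 0, no background correction, no spots left out, median centring, Agilent's ratio, the authors' values, Cy5 alone, other filters, the average of a gene's probes, slide as a block, array weights, and leaving out arrays. The fit was checked on simulated data. Replicate numbers follow the order of deposition. Python 3.11.15 with matplotlib 3.10.9 drew the figures.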

Additional observations from a re-analysis of the deposited data

Results flagged for a closer look

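Of the 28 groups of 4 or 5 arrays examined for a sample far from the others, 3 held one, where chance alone gives about 1 in 20. The log2 ratio of Mthfd2 on injured array 3 was −0.39, below the other injured arrays, of which the nearest was at −0.26, and still above every uninjured array. For Aldh1l2, injured array 5 stood at −3.49, above the nearest injured array at −3.60 and inside the range of the uninjured arrays. Shmt2 minus Shmt1, relative to the uninjured mean, was 0.60 on injured array 2, and the nearest injured array was at 0.27. The causes were not tested.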

How the results depend on the processing

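No paired analysis was possible because neither replicate numbers nor animals are in the labels. The number of called genes, 5311, was 2659 with median centring, 1179 with slide as a fixed block, 134 on slide 2 alone, 3013 without injured arrays 2 and 4 (a setting chosen after seeing the data) and 4026 to 5446 with each array left out in turn. With slide as a random block it was 7408, at an estimated correlation within slides of −0.21. Median centring moved the median log2 fold change of all genes to −0.05. Of the 4 enzymes called higher, 1 (Mthfd2) was called with median centring and with slide as a fixed block, 0 on slide 2 alone, 5 (with Mthfd1l) with slide as a random block or array weights, and 4 to 5 with each array left out. The count called higher was 3 in the authors' values and in Cy5 alone (Asns not called). It was also 3 without injured arrays 2 and 4 (Shmt2 not called). The count called lower, 0, was 1 (Mthfd1) in the authors' values, with slide as a random block and with array weights, and 0 to 1 with each array left out.

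Signs reversed only for genes that were not called. Aldh1l2 was −0.0375 without background correction, −0.0152 with an offset of 0, −0.0712 with median centring, −0.0673 in Agilent's ratio, −0.0134 with probes averaged, −0.0245 with array weights, and −0.0452 to 0.048 with each array left out (below 0 without uninjured array 2 or injured array 5). Shmt1 was −0.0484 in Cy5 alone and −0.0265 to 0.165 with each array left out (below 0 without uninjured array 3 or injured array 5). Phgdh was −0.01996 with median centring.

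Among the pairs, Shmt2 minus Shmt1 no longer passed with an offset of 0 (0.32), no spots left out (0.13), median centring (0.26), Agilent's ratio (0.35) and without injured arrays 2 and 4 (0.19). Aldh1l2 minus Aldh1l1 no longer passed with an offset of 0 (−0.44), no spots left out (−0.19), median centring (−0.41), Agilent's ratio (−0.51), the authors' values (−0.38), Cy5 alone (−0.41) and without injured arrays 2 and 4 (−0.42). Without those arrays Mthfd2 minus Mthfd1 was 0.73 and Mthfd1l minus Mthfd1 0.38 (exact test, adjusted p = 0.0571 for both). Fewer arrays raise the smallest p of this test, so these values do not show a weaker difference. With slide as a fixed block, as on slide 2 alone, the 4 differences were 0.36 (Shmt2), 0.81 (Mthfd2), 0.28 (Mthfd1l) and −0.70 (Aldh1l2), in a design that could not pass. With each array left out they ranged from 0.20 to 0.35 (Shmt2), 0.71 to 0.79 (Mthfd2), 0.32 to 0.43 (Mthfd1l) and −0.51 to −0.29 (Aldh1l2), with the same sign throughout. The causes of these differences were not tested.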
